A study of Mus musculus with 2 samples.

Results

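The glucocorticoid receptor gene *Nr3c1* and 8 genes that the hormone-bound receptor is known to switch on directly (*Tsc22d3*, *Fkbp5*, *Sgk1*, *Klf9*, *Zbtb16*, *Dusp1*, *Errfi1* and *Ddit4*) were read from the transcriptomes of WT and *Igfbp7*-/- mammary epithelial cells (MECs). The 9 genes were chosen by symbol from the 25810 genes that the files list with a symbol, and all 9 were present in both libraries. The WT library came from wild type mice and the knockout library from mice that lack the first coding exon of *Igfbp7* in every tissue. Both were made from inguinal glands at lactation day 3, and no hormone treatment is described for either group. The labels give a C57BL/6 background for both groups, whereas the methods of the study describe knockout mice on a CD1 background, and the ages and the number of animals behind each library were not given in the sources used here. The cells were depleted of leukocytes and erythroid cells, and of endothelial cells by the methods of the study, with antibodies before RNA was extracted. For the endothelial step the methods name CD31, an endothelial antigen, whereas the labels name CD35, so the sources differ on that antigen. The methods also describe staining the depleted cells for the lineage antigens, CD31 among them, and the authors judged the remaining contamination insignificant. Each genotype had 1 library, so no difference between genotypes could be tested and no replicate error is available for any value.

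Glucocorticoids enter the cell and bind the glucocorticoid receptor, which is held ready in the cytoplasm by heat shock proteins and co-chaperones. The bound receptor moves to the nucleus, sits as a dimer on a palindromic DNA element and recruits coactivators or corepressors. In the mammary gland the hormone acts together with prolactin to drive milk protein genes, and added glucocorticoid is known to delay involution after weaning. Several of its targets damp other signals: *Tsc22d3* encodes GILZ, which restrains inflammatory transcription factors, *Dusp1* encodes a phosphatase of MAP kinases, *Errfi1* encodes an inhibitor of ERBB receptors, and *Fkbp5* encodes a co-chaperone that lowers the hormone affinity of the receptor itself.

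The palindromic element is shown first, because 1 of the 9 genes carries the complete form of it close to a start site. Promoter windows from RefSeq (mouse build GRCm38.p6, 250 bases before to 50 bases after each start) were found for 7 of the 9 genes, and *Nr3c1* and *Zbtb16* had no entry. The 15-letter palindrome, which reads AGAACA, any 3 bases and TGTTCT, was found in 3 of 32851 windows, and *Sgk1* held 1 of those 3. A shorter 13-letter core, which reads GNACA, any 3 bases and TGTNC with N for any base, lies inside the palindrome, is its own reverse complement and was found in 156 windows (0.475%), which belong to 145 of 27025 genes. Among the other glucocorticoid-induced genes described further on, 4 of the 30 genes with an entry held this core, as did *Jund* among the immediate early genes. The stretches around the sites read as follows on the transcript strand, with capitals marking the complete palindrome in *Sgk1* and the 13-letter core in the other genes.
Sgk1: gcggaaAGAACAGAATGTTCTcggaga
Fam107a: gtggcttGGACATGGTGTTCtgagtct
Mt1: actatagGGACATGATGTTCcacacgt
Map3k6: aatagggGCACAGGCTGTTCcggaagt
Trim63: tggctctGAACAGTCTGTTCttgttta
Jund: agctaggGTACAGGGTGTCCtaataac

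Positions of the stretches are in build GRCm38.p6 and cannot be set beside the gene positions further on, which are in build NCBIM37. The *Sgk1* stretch lies at chr10:21993695-21993721 on the plus strand, with its center 182 bases before 1 of the 6 start sites listed for the gene. The *Fam107a* stretch is at chr14:8309878-8309904 on the minus strand, and the plus-strand stretches of *Mt1*, *Map3k6*, *Trim63* and *Jund* are at chr8:94178988-94179014, chr4:133240630-133240656, chr4:134314905-134314931 and chr8:70697701-70697727. The genes that share the core did not share a direction: the *Igfbp7*-/- to WT ratio was 1.54 for *Sgk1*, 0.217 for *Fam107a*, 0.714 for *Mt1*, 1.10 for *Map3k6* and 1.35 for *Jund*, and *Trim63* had 4 reads in WT and 2 in *Igfbp7*-/-. The 6-letter element AGAACA, on either strand, was present in windows of *Tsc22d3* and *Sgk1*, 2 of the 7 genes, against 21.3% of all genes in the table. *Tsc22d3* has 3 windows and *Sgk1* has 6, and a gene with more windows has more places for a match. By window, the 6-letter element was in 4 of the 15 windows of the 7 genes, against 19.0% of all windows. A match describes letters in a 300-base window and is not evidence of receptor binding in these cells.

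The libraries held 34327854 (WT) and 35016847 (*Igfbp7*-/-) mapped reads by the authors' own scaling, of which 82.3% and 72.3% fell on the listed genes. *Igfbp7* itself was counted 5224 times in WT and 37 times in *Igfbp7*-/-, so the libraries match their labels. Alveolar luminal markers were present in both libraries, among them *Csn2* (β-casein) at 53087 RPM (WT) and 19970 RPM (*Igfbp7*-/-), where RPM is the number of reads of a gene after scaling for the total mapped in that library. Of the 7 alveolar luminal markers, 3 were lower in *Igfbp7*-/- by at least 1.5 times, 2 were higher and 2 lay between. For comparison with this and the counts that follow, 23.0% of all genes with at least 1 RPM in either library were lower and 21.4% were higher. Transcripts of other cell types were present as well and were mostly lower in *Igfbp7*-/-. Lower by at least 1.5 times were 5 of 6 myoepithelial markers (summed level 2942 RPM in WT against 958 RPM in *Igfbp7*-/-), 4 of 6 fibroblast markers (9060 and 4582 RPM, summed) and 5 of 5 endothelial markers (1106 and 338 RPM), together with 5 of 6 leukocyte markers (121 and 54.6 RPM). Of the 4 adipocyte markers with at least 1 RPM, 3 were lower (562 and 192 RPM over the list of 5, of which *Fabp4* alone had 543 and 173 RPM). The other, *Lep*, was higher (8.04 and 16.8 RPM). The 3 erythroid markers with at least 1 RPM stayed within 1.5 times. None of the myoepithelial, fibroblast, endothelial, leukocyte or adipocyte markers was at 0 in either library. In bulk RNA, fewer cells of a type and less RNA per cell cannot be told apart. The part of these differences in the values below was not tested.

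Most of the targets were more abundant in *Igfbp7*-/- MECs, and the receptor itself differed less. The study called genes by a ratio of 1.5 together with cutoffs of P value and sequence quality, and only the ratio was used here. At a ratio of at least 1.5, 6 of the 9 genes were higher in *Igfbp7*-/- and 0 were lower, and all 6 were targets. Of the 14026 genes that reached 1 RPM in either library, 21.4% were higher by this rule and 23.0% were lower. All 9 genes reached 10 RPM, and of the 8201 genes that did so, 20.7% were higher and 20.4% were lower. At a ratio of 2, *Zbtb16* and *Errfi1* were higher, 2 of the 9, where 9.64% of the 14026 genes were higher and 13.8% were lower. The median log2 ratio of the 9 genes was 0.63, beside 0.03 for all genes tested. The 9 genes were chosen with earlier results of these data known, so these counts are a description. Ratios were formed from the authors' RPM after adding 0.1 RPM to both values. The intervals below are 95% Clopper-Pearson intervals on read pairs, which cover the counting of reads and leave out the variation between animals. The genes had between 1694 and 90094 reads per library, so counting error was small for every one of them.

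**Figure D1:**
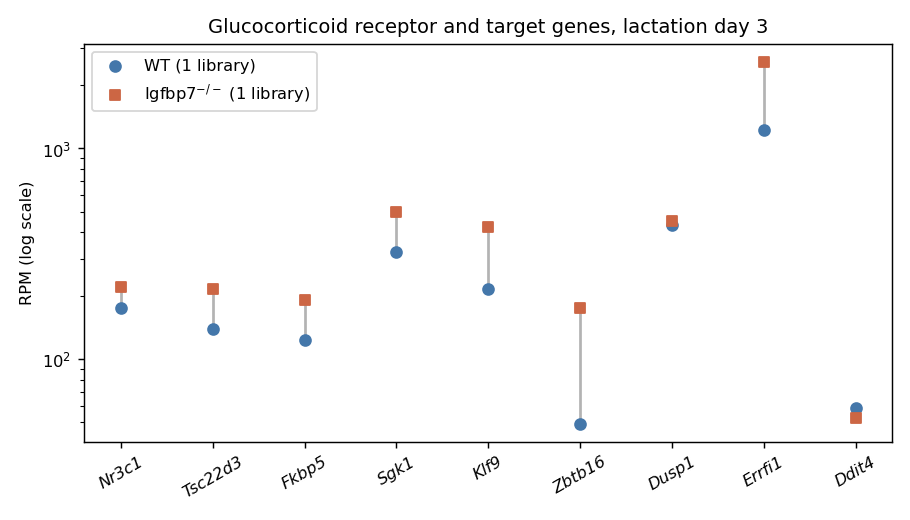
RPM (log axis) of *Nr3c1* and the 8 target genes in the WT library (circles) and the *Igfbp7*-/- library (squares), 1 library each, so no error bars are drawn. The square lies above the circle for every gene except *Ddit4*, by the widest distance for *Zbtb16* (49.3 and 175 RPM) and hardly at all for *Dusp1* (434 and 451 RPM).

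*Nr3c1*, the receptor, lies on the minus strand of chromosome 18 (build NCBIM37, 39570199 to 39650955). It was counted 5992 times in WT and 7703 times in *Igfbp7*-/-, at levels of 175 and 220.0 RPM. The log2 ratio was 0.33 (interval 0.26 to 0.40), a ratio of 1.26, which is inside the 1.5 threshold. A ratio below that of *Nr3c1* was measured for 66.4% of all genes tested.

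*Zbtb16* encodes the zinc finger repressor PLZF and is known to be strongly induced by glucocorticoids and progestins, and it differed most. On chromosome 9 (minus strand, 48462416 to 48644050), it was counted 1694 times in WT and 6132 times in *Igfbp7*-/-. Its level was 49.3 RPM in WT against 175 RPM in *Igfbp7*-/-, which is 3.54 times and 1.83 on the log2 scale (1.72 to 1.94). A lower ratio was measured for 97.9% of all genes tested, and *Zbtb16* ranked 292 from the top of 14026.

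*Errfi1* and *Klf9* followed with ratios near 2. *Errfi1*, on chromosome 4 (plus strand, 150228028 to 150243001), was the most abundant of the 9 genes, counted 41836 times in WT (1219 RPM) and 90094 times in *Igfbp7*-/- (2573 RPM). The *Errfi1* ratio was 1.08 on the log2 scale (1.05 to 1.10). *Klf9*, a Krüppel-like transcription factor on chromosome 19 (plus strand, 23215716 to 23241401), was counted 7417 times in WT (216 RPM) and 14844 times in *Igfbp7*-/- (424 RPM), with a ratio of 0.97 on the log2 scale (0.92 to 1.03). For these genes and *Zbtb16*, 3 in all, the whole counting interval lay above a ratio of 1.5.

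*Tsc22d3*, *Fkbp5* and *Sgk1* were higher by nearly the same factor, just past the threshold. *Tsc22d3*, on chromosome X (minus strand, 137074067 to 137135198), was counted 4746 times in WT (138 RPM) and 7537 times in *Igfbp7*-/- (215 RPM), a ratio of 1.56 (1.48 to 1.64). *Fkbp5*, on chromosome 17 (minus strand, 28536040 to 28654469), was counted 4238 and 6694 times in the same order (123 and 191 RPM), a ratio of 1.55 (1.47 to 1.64). *Sgk1* encodes a kinase that promotes sodium uptake and cell survival. It lies on chromosome 10 (plus strand, 21601990 to 21719709) and was counted 11124 and 17497 times (324 and 499.7 RPM), a ratio of 1.54 (1.49 to 1.59). All 3 intervals include 1.5, and each lies wholly above 1.

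*Dusp1* and *Ddit4* stayed within 1.5 times. *Dusp1*, on chromosome 17 (minus strand, 26642535 to 26645464), was counted 14902 times in WT (434 RPM) and 15780 times in *Igfbp7*-/- (451 RPM), which is 0.05 on the log2 scale (0.01 to 0.10). *Ddit4* encodes REDD1, an inhibitor of mTORC1 signaling that stress and low oxygen also induce, and lies on chromosome 10 (minus strand, 59412423 to 59414518). It was counted 2016 times in WT (58.7 RPM) and 1835 times in *Igfbp7*-/- (52.4 RPM), which is -0.16 on the log2 scale (-0.29 to -0.03). It was the only gene of the 9 with a ratio below 1, and the sign turned to 0.02 when the libraries were scaled to the reads on listed genes. No other annotated gene shared exon bases with any of the 9 genes.

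**Figure D2:**
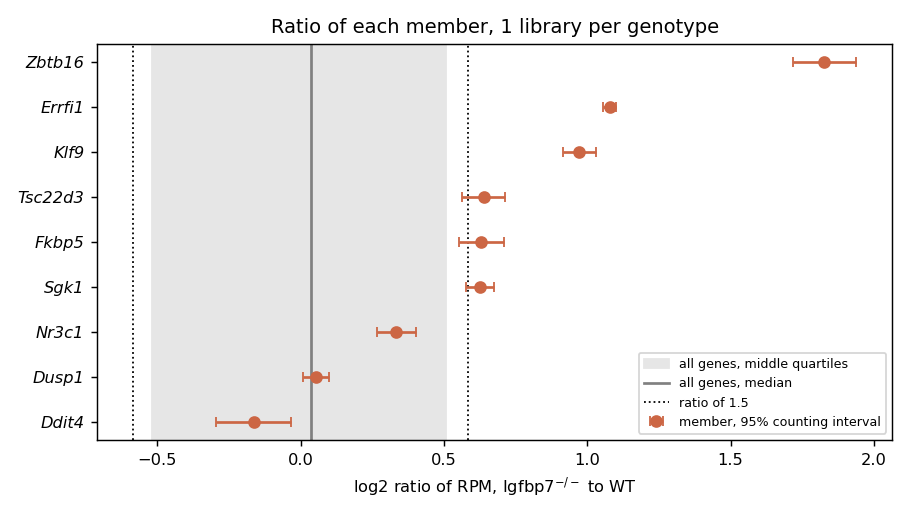
Log2 ratio of RPM, *Igfbp7*-/- to WT, for each of the 9 genes (points) with the 95% counting interval (bars), 1 library per genotype, against the median (0.03) and middle quartiles (-0.52 to 0.51) of all 14026 genes tested and a ratio of 1.5 in either direction (dotted lines). *Zbtb16*, *Errfi1* and *Klf9* stand clear of the dotted line, *Tsc22d3*, *Fkbp5* and *Sgk1* sit on it, and *Nr3c1*, *Dusp1* and *Ddit4* lie inside.

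Comparing the genes with each other inside a library removes the scaling of the library. For every 100 reads of *Nr3c1* there were 28.3 reads of *Zbtb16* in WT and 79.6 in *Igfbp7*-/-. The same quantity was 124 and 193 for *Klf9* and 698 and 1169.6 for *Errfi1*. For *Tsc22d3* it was 79.2 and 97.8, for *Fkbp5* 70.7 and 86.9, and for *Sgk1* 186 and 227. These 6 targets were thus higher in *Igfbp7*-/- in proportion to the receptor transcript, which follows from the same counts as the ratios above. *Dusp1* (249 and 205) and *Ddit4* (33.6 and 23.8) were lower in proportion to it.

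Between these libraries, 1 per genotype, most of the 9 ratios differed from each other by more than counting error. Of the 36 pairs of genes, the 95% counting interval of the difference between their log2 ratios, taken from the standard error of the log odds ratio on read pairs, included 0 for 3, all of them among *Tsc22d3*, *Fkbp5* and *Sgk1*. The difference between *Tsc22d3* and *Fkbp5* was 0.01 (-0.10 to 0.12) on the log2 scale, and that between *Fkbp5* and *Sgk1* was also 0.01 (-0.09 to 0.10). The log2 ratio of *Zbtb16* exceeded that of *Ddit4* by 1.99 (1.82 to 2.16), the widest gap among the pairs. These intervals count reads only, and spread between animals would widen them by an unknown amount.

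**Figure D3:**
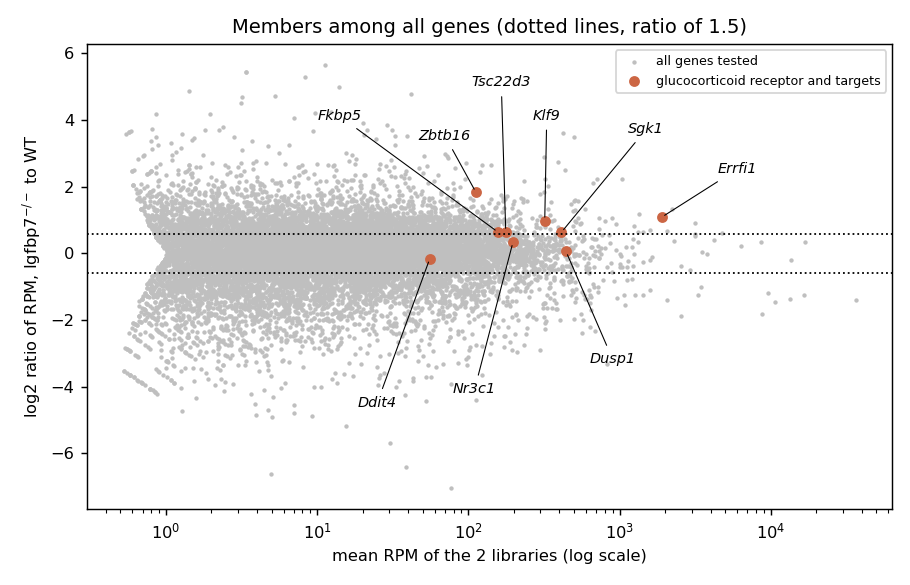
Log2 ratio of RPM, *Igfbp7*-/- to WT (vertical axis), against the mean RPM of the 2 libraries (log axis) for the 14026 genes that reached 1 RPM in either library (gray) and the 9 genes (colored, labeled). *Zbtb16* lies toward the upper edge of genes of its level, where 97.9% of all genes tested had a lower ratio, and *Dusp1* lies near the middle (51.0%).

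Levels of different genes were compared per length, as RPKM (RPM per kilobase of the gene length chosen by the authors). In WT the order was *Errfi1* (402 RPKM), *Dusp1* (222), *Sgk1* (104), *Klf9* (66.2), *Tsc22d3* (64.3), *Fkbp5* (35.04), *Ddit4* (34.9), *Nr3c1* (27.5) and *Zbtb16* (9.65). In *Igfbp7*-/- it was *Errfi1* (848 RPKM), *Dusp1* (231), *Sgk1* (160.1), *Klf9* (129.9), *Tsc22d3* (100.2), *Fkbp5* (54.3), *Nr3c1* (34.7), *Zbtb16* (34.2) and *Ddit4* (31.1). The first 6 genes kept their places, and the remaining 3 exchanged theirs. With 1 library each, the spread that would say whether neighbors such as *Fkbp5* and *Ddit4* in WT or *Nr3c1* and *Zbtb16* in *Igfbp7*-/- differ is not known. The 9 genes together made up 2737 RPM in WT against 4801 RPM in *Igfbp7*-/-, and *Errfi1* alone supplied 44.5% and 53.6% of their reads.

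The other parts of the receptor system had a smaller median log2 ratio than the 0.63 of the 9 genes. Of 25 genes for hormone-converting enzymes, receptor chaperones and coregulators, all with at least 1 RPM, 6 (beside 21.4% of all genes) were higher in *Igfbp7*-/- by at least 1.5 times and 2 (beside 23.0%) were lower, with a median log2 ratio of 0.16. The higher count is near the share of all genes, and the lower count is under it. Among the higher genes was the corepressor gene *Ncor1* (102 RPM in WT, 158 RPM in *Igfbp7*-/-). The coactivator genes *Crebbp* (89.3 and 173 RPM), *Ncoa1* (34.1 and 55.3 RPM) and *Ep300* (70.9 and 108 RPM) were also higher, as was *Stub1*, a ubiquitin ligase gene (2.71 and 5.71 RPM).

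The lower genes of that list were *Abcb1a*, which encodes an exporter of steroids and drugs (14.4 RPM in WT, 7.85 RPM in *Igfbp7*-/-), and *Hsd11b2*, which encodes the enzyme that inactivates corticosterone (1.40 and 0.628 RPM, 48 and 22 reads). *Hsd11b1*, whose enzyme regenerates the active hormone, had 50.1 and 37.3 RPM and was within 1.5 times. The mineralocorticoid receptor gene *Nr3c2*, which binds the same hormone, was weakly expressed at 7.78 and 5.17 RPM, a ratio of 0.669 that falls just inside the threshold. Median centring, TMM factors and a pseudocount of 0.01 RPM in place of 0.1 RPM each took it past the threshold.

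The co-chaperones *Fkbp4* and *Fkbp5* compete for the receptor complex and act in opposite ways, *Fkbp4* favoring transport of the receptor to the nucleus. *Fkbp4* was at 56.0 RPM in WT against 42.6 RPM in *Igfbp7*-/-, or -0.39 on the log2 scale (-0.54 to -0.26), whereas *Fkbp5* had the ratio of 1.55 given above. The level of *Fkbp5* per length was 1.35 times that of *Fkbp4* in WT and 2.76 times in *Igfbp7*-/-. The chaperone gene *Hsp90aa1* had 289 and 254 RPM (log2 ratio -0.19).

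A longer list of 39 genes known to be induced by glucocorticoids in some tissue was divided. In this list 34 genes had at least 1 RPM in either library, and 5 (*Hif3a*, *Tat*, *Pck1*, *G6pc* and *Trim63*) stayed below it. *G6pc*, a liver gene, had 0 reads in both libraries, which allows a level of up to 0.175 RPM (WT) and 0.171 RPM (*Igfbp7*-/-), the worth of 3 read pairs, for counting error alone. Of the 34, 11 were higher in *Igfbp7*-/- by at least 1.5 times, 7 were lower and 16 lay between, beside 21.4% and 23.0% of all genes. The median log2 ratio was 0.07, close to the 0.03 of all genes, but the upper quartile was 0.89, beside 0.51 for all genes. The lower quartiles were -0.47 and -0.52. At a ratio of 2, 8 of the 34 were higher (beside 9.64% of all genes) and 5 were lower (beside 13.8%).

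Among the higher genes were *Pdk4*, a kinase that turns off pyruvate oxidation (81.9 and 915 RPM, log2 ratio 3.48), *Foxo3*, a forkhead transcription factor of fasting and stress (37.2 and 120.4 RPM, 1.69), and *Angptl4*, an inhibitor of lipoprotein lipase (113 and 345 RPM, 1.62). The clock gene *Per1*, a direct target of the receptor, had 88.1 and 179 RPM, a log2 ratio of 1.02 (0.93 to 1.11). Among the lower genes were *Fam107a* (22.6 and 4.83 RPM, log2 ratio -2.20) and *Rgs2*, a regulator of G protein signaling (162 and 38.6 RPM, -2.07). *Pdk4*, *Foxo3* and *Angptl4* are also known to respond to fasting and insulin.

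**Figure D4:**
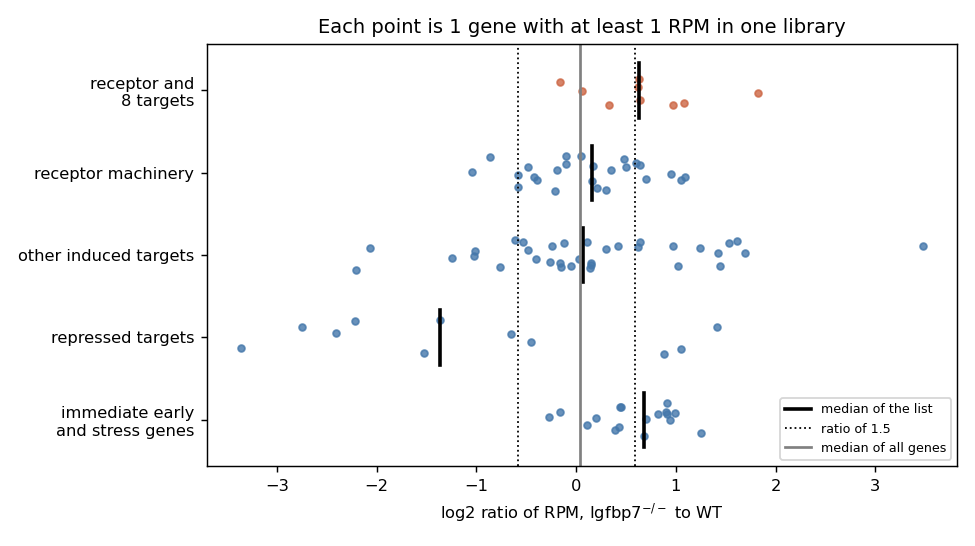
Log2 ratio of RPM, *Igfbp7*-/- to WT, of every gene with at least 1 RPM in either library in the 9-gene list and 4 related lists (1 point a gene, moved up or down only for legibility), with the median of each list (black bars), the median of all genes (gray line) and a ratio of 1.5 (dotted lines). The 9 genes and the immediate early and stress genes lie mostly to the right (medians 0.63 and 0.68), the other induced targets spread to both sides (0.07), and the repressed targets lie mostly to the left (-1.36).

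Genes that glucocorticoids are known to repress were mostly lower in *Igfbp7*-/-. Of 14 such genes, chiefly of inflammation, 11 had at least 1 RPM in either library. Of these, 7 were lower by at least 1.5 times (23.0% of all genes were), 3 were higher (21.4% of all genes were) and *Ptgs2* lay between. The median log2 ratio was -1.36. This list, like the others, was chosen with earlier results of these data known, so its counts describe it and test nothing. The higher genes were weakly expressed: *Ccl20* had 3.85 RPM in WT and 10.4 RPM in *Igfbp7*-/-, *Il11* 1.57 and 2.97 RPM, and *Mmp9* 0.845 and 1.86 RPM. The matrix collagenase *Mmp13* was at 179 RPM (WT) and 17.4 RPM (*Igfbp7*-/-), the chemokine *Cxcl10* 404 and 59.9 RPM, and the cytokines *Il6* and *Il1b* 260.0 and 55.9 RPM and 53.2 and 9.97 RPM. *Nos2*, the inducible nitric oxide synthase, had 18.1 and 6.20 RPM. The leukocyte, fibroblast and endothelial markers given above were mostly lower in the same library (5 of 6, 4 of 6 and 5 of 5, beside 23.0% of all genes). Their part in the result was not tested.

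Immediate early and stress genes are induced by growth signals and by the dissociation of tissue. Of 17 such genes, 9 (beside 21.4% of all genes) were higher in *Igfbp7*-/- by at least 1.5 times, 0 (beside 23.0%) were lower and 8 lay between, with a median log2 ratio of 0.68, beside 0.63 for the 9 glucocorticoid genes. At a ratio of 2, 1 of the 17 was higher, beside 9.64% of all genes. Examples are *Fosb* (290.5 RPM in WT, 693 RPM in *Igfbp7*-/-), *Btg2* (191 and 380.1 RPM), *Junb* (88.7 and 170.2 RPM), *Klf6* (2172 and 4094 RPM) and *Egr1* (389 and 730.3 RPM). This list was also chosen with earlier results of these data known, so its counts are a description. *Dusp1* is an immediate early gene too, with a ratio of 1.04. How much of the level of *Errfi1*, *Sgk1* or *Klf9*, which such signals can also move, goes with these genes was not tested.

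*Wap* and *Csn2*, milk protein genes whose transcription needs glucocorticoid and prolactin together, were lower in *Igfbp7*-/-. *Wap*, which encodes whey acidic protein, was at 13731 RPM in WT against 3866 RPM in *Igfbp7*-/- (log2 ratio -1.83), and the log2 ratio of *Csn2* was -1.41. The luminal keratin genes *Krt8* (268 and 789 RPM) and *Krt18* (250.4 and 1174 RPM) were higher in *Igfbp7*-/-.

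The scaling of the libraries decided the size of the ratios but no call on the 9 genes. Scaling to the reads on listed genes in place of all mapped reads moved the median log2 ratio of all genes by 0.19 and that of the 9 genes from 0.63 to 0.82, so relative to all genes the 9 genes stood where they did before. Under that scaling 62.2% of all genes past 1.5 times were higher in *Igfbp7*-/-, against 48.2% under the authors' RPM. *Zbtb16* lay between 1.79 and 2.01 on the log2 scale over all settings tried, and *Sgk1*, the nearest to the threshold of the 6, between 0.59 and 0.81.

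**Figure D5:**
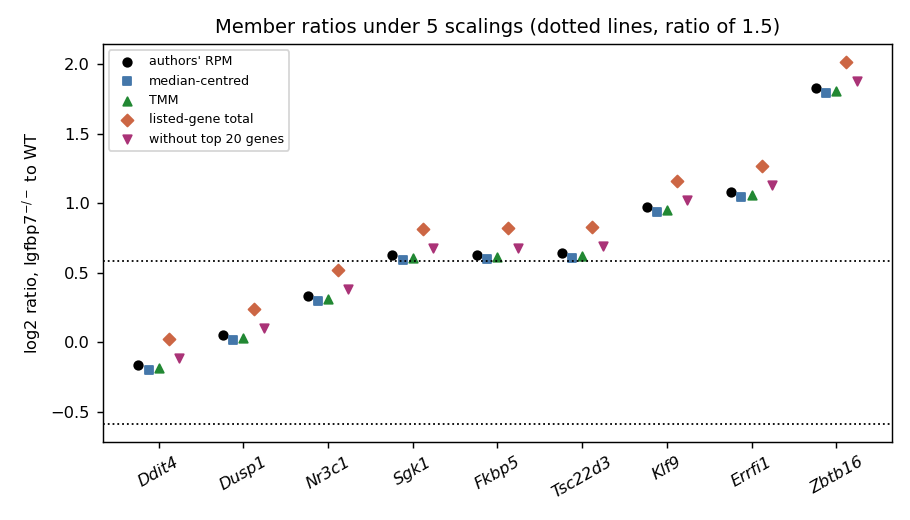
Log2 ratio, *Igfbp7*-/- to WT, of the 9 genes under 5 ways of scaling the libraries (symbols), with a ratio of 1.5 as dotted lines. Every symbol of the 6 higher targets lies above the upper line, *Nr3c1* and *Dusp1* stay below it (highest values 0.52 and 0.24), and *Ddit4* lies between -0.20 and 0.02.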

How the data were processed

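Poly(A) RNA of lineage-depleted MECs was sequenced on a SOLiD sequencer in 2 libraries, 1 per genotype. The authors mapped paired reads of 35 and 75 bases with a Bowtie pipeline in GeneSifter and allowed 3 mismatches. The submitters' processing notes name Bowtie 0.12.3, SAMtools 0.1.15 and build mm9, while the methods name a human build. The methods state that mitochondrial, ribosomal and small nuclear RNA were filtered out. Listed genes of the ribosomal RNA type still held 2.95% (WT) and 3.15% (*Igfbp7*-/-) of mapped reads. The gene annotation, the use of strand in counting and the treatment of multiply mapped reads are not given in the sources used here. The authors deposited raw read counts per gene, RPM (the count scaled to all mapped reads, a total that exceeds the reads on listed genes) and RPKM (RPM per kilobase). A larger share of unlisted reads lowers every RPM of that library, and abundant milk transcripts shift all others.

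Genes were matched by symbol and the 50 rows without a symbol (0.0408% and 0.0484% of reads) were left out. Low counts were mostly even, so intervals used counts divided by 2. Ratios, the pseudocount of 0.1 RPM, the minimum of 1 RPM and the ratio of 1.5 are described with the results. Count models need replicates and were not run, and TMM factors were computed with edgeR 4.0.16. Scripts were tested on simulated counts. All 9 genes were named, as were *Igfbp7*, *Csn2* and *Wap*. From each of the 4 further lists came the 5 genes with the largest absolute log2 ratio among those with at least 10 RPM and past 1.5 times, together with *Nr3c2*, *Hsd11b1*, *Hsd11b2*, *Fkbp4*, *Hsp90aa1* and *Per1*. *Ep300*, *Stub1*, *Ccl20*, *Il11*, *Mmp9*, *Ptgs2*, *Krt8*, *Krt18*, *Fabp4*, *Lep*, the genes below the minimum and those named for the core motif were named after their values were seen. A gene that the rule names is not reported here. The 9 genes and the lists were chosen with earlier results of these data known. Gene positions are from GENCODE in build NCBIM37 (mm9). Python 3.11.15, numpy 2.4.6, pandas 2.3.3 and scipy 1.17.1 were used.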

Additional observations from a re-analysis of the deposited data

How the results depend on the processing

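Tried in place of the settings above were a pseudocount of 1 or 0.01 RPM, the RPKM values, no minimum, a minimum of 10 RPM, median centring, scaling to listed genes, scaling without the 20 genes of highest RPM, TMM factors and a ratio threshold of 2. Under all of these but the last, the same 6 of the 9 genes were higher and 0 were lower. Beside them, 18.1% to 30.6% of all genes were higher and 18.6% to 26.2% were lower. With a threshold of 2, 2 of the 9 genes (*Zbtb16* and *Errfi1*) were higher, beside 9.64% of all genes. The counts of higher genes were 1 for the immediate early list and 2 for the receptor machinery, where 1 gene was lower, beside 13.8% of all genes. Of the 25 receptor machinery genes, 4 were lower with TMM factors (beside 24.1% of all genes) and 4 with median centring (24.1%). There were 3 lower with a pseudocount of 0.01 RPM (23.3%) and 1 with a pseudocount of 1 RPM (19.9%). Of the 22 that reached a minimum of 10 RPM, 1 was lower (20.4%). With that minimum 1 of 9 repressed targets was higher (beside 20.7% of all genes) and their median was -1.53, and it was -1.25 without a minimum. Scaling to listed genes gave medians of 0.82 for the 9 genes, 0.87 for the immediate early list, 0.35 for the receptor machinery and -1.18 for the repressed targets, and scaling without the 20 genes gave 0.22 and -1.31 for the last pair. No paired analysis was possible because each genotype had 1 library, and leaving out a library was not possible for the same reason. Depth did not limit the 9 genes, but *Hsd11b2*, at 48 and 22 reads, has a log2 ratio of -1.04 with a counting interval of -2.33 to -0.07.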
